A study of Mus musculus with 20 samples.

Results

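Conjugation enzymes attach a large polar group to drugs, hormones, bilirubin, bile acids and reactive metabolites so that these can leave the cell in bile or urine. The set described here holds the UDP-glucuronosyltransferases (UGT), the cytosolic and mitochondrial glutathione S-transferases (GST), the microsomal glutathione S-transferases (MGST) and the sulfotransferases (SULT). Members were all protein-coding genes whose symbol begins with Ugt1, Ugt2, Ugt3, Gsta, Gstk, Gstm, Gsto, Gstp, Gstt, Gstz, Mgst or Sult and a digit. The rule found 62 of the 26830 genes with a count in any fetus, namely 20 UGT, 22 GST, 3 MGST and 17 SULT genes.

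Polyadenylated RNA of the right liver lobe was sequenced in 20 male fetuses of the outbred CD-1 IGS mouse strain at embryonic day 18.5. The control group and the maternal nutrient restriction (MNR) group each held 5 litters, lettered A to E, with 2 littermates per litter. Littermates share a dam, so their counts were summed and the litter was the replicate. A control litter and an MNR litter of the same letter are not from the same dam, and the labels do not describe the diet. Total counts per fetus were 14925778 to 28016953. The labelled tissue was checked on its markers: the summed level of 8 hepatocyte markers lay at 122700 to 140900 CPM (counts scaled by library size) in the control fetuses and at 122100 to 142100 CPM in the MNR fetuses. The fetal liver is also a blood-forming organ, and 9 erythroid markers summed to 26580 to 57960 CPM in control and 30720 to 51170 CPM in MNR. In such whole-tissue RNA, fewer cells of a type and less RNA per cell cannot be told apart.

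As background, UGT enzymes sit in the endoplasmic reticulum and transfer glucuronic acid from UDP-glucuronate. GST and MGST enzymes transfer glutathione to electrophiles, and SULT enzymes transfer sulfate from the activated donor PAPS. In the liver most of these genes are known to be switched on around and after birth, under nuclear receptors such as PXR and CAR and the oxidative stress factor NRF2.

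Across the set, MNR and control livers differed little, and 1 gene passed the test. Mgst2 was higher in MNR, and no member was called lower. Of the 62 members, 54 had enough counts to be tested. A gene was called at a Benjamini-Hochberg adjusted p under 0.05 in edgeR's quasi-likelihood test over all 17573 tested genes, where 117 genes, or 0.666%, were called. An unadjusted p under 0.05 was found for 11 of the 54 members, 5 of them higher and 6 lower in MNR, against 19.6% of all tested genes. Control and MNR litters were fully separate for 1 of the 54 members, again Mgst2, against 4.5% of all tested genes. The median log2 fold change of MNR over control was -0.02 over the 54 members and 0.00 over all tested genes (27 members positive and 27 negative). These shares stand near the background. Below, values are CPM as mean ± SD over 5 litters, and changes are log2 fold changes with their standard error (SE).

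**Figure D1:**
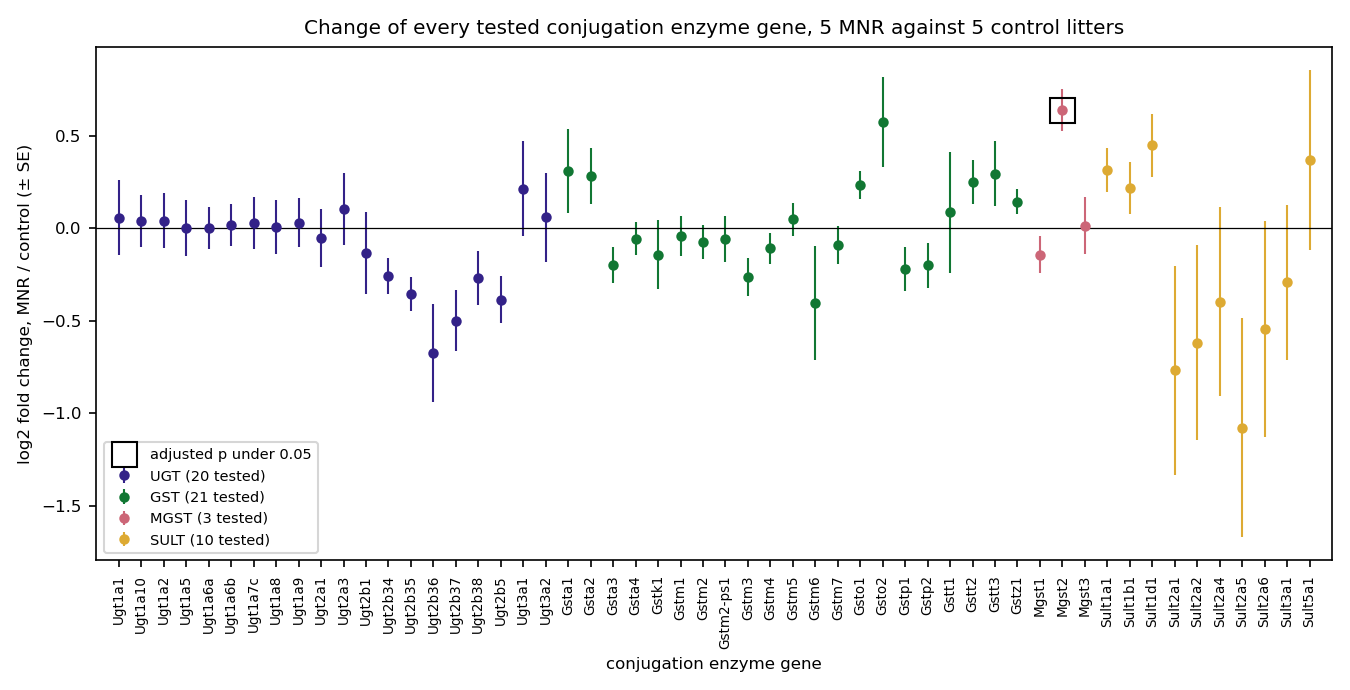
Log2 fold change of MNR over control (vertical axis, with SE bars, 5 litters per group) of the 54 tested members (horizontal axis), coloured by family. Mgst2, the only squared point, stands at 0.64, the 7 Ugt2b genes all lie below 0, and the 9 Ugt1a genes lie between 0.00 and 0.06.

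The 9 Ugt1a genes come from a single locus on chromosome 1, in which each gene has its own first exon and all of them splice to the same exons 2 to 5. Ugt1a1 is the enzyme that glucuronidates bilirubin, and Ugt1a6a and Ugt1a6b act on small planar phenols. The junctions below show why counts of these genes are hard to separate. Each line gives the last 30 bases of exon 1 in lower case and the first 20 bases of exon 2 in capitals, read from the mm9 genome on the plus strand. Exon 2 starts at position 90111619 of chromosome 1 in all 9 genes.
Ugt1a1: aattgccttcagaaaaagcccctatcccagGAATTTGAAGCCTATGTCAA
Ugt1a2: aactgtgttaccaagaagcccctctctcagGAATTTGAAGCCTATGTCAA
Ugt1a5: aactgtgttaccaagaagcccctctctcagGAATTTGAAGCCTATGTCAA
Ugt1a6a: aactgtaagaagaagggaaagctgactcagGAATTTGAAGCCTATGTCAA
Ugt1a6b: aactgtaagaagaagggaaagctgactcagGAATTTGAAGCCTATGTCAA
Ugt1a7c: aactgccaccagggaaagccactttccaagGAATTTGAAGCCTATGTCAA
Ugt1a8: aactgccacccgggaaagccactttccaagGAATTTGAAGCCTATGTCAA
Ugt1a9: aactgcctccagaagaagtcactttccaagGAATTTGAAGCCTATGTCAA
Ugt1a10: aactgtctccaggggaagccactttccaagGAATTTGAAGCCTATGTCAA
The 9 junctions hold 7 distinct stretches of exon 1, since Ugt1a2 matches Ugt1a5 and Ugt1a6a matches Ugt1a6b. The first 1311 bases from exon 2 on are identical in the 9 full-length transcripts, while their first exons are 879 to 954 bases long. Of all 50-base windows in their coding transcripts, 58.0% to 91.0% occur in another gene as well. Here and below, only protein-coding transcripts of other genes were searched for such windows.

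The full-length transcripts of Ugt1a2, Ugt1a5, Ugt1a8 and Ugt1a10 were listed with 10147, 10099, 10184 and 10175 counts over the 20 fetuses. Those 4 totals, picked as the lowest of the 9, span 0.837% of their mean over all fetuses and 3.53% to 26.2% of the mean of the 4 within single fetuses. Ugt1a7c with 10742 counts and Ugt1a9 with 10829 counts lay just above them, and Ugt1a6a with 12714 and Ugt1a6b with 13365 somewhat further. Ugt1a1 stood apart with 53646 counts, 43495 above the mean of the 4 nearly equal transcripts. Because of the shared exons, the counts of these genes were read as a locus, with Ugt1a1 also by the amount above the common one.

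**Figure D2:**
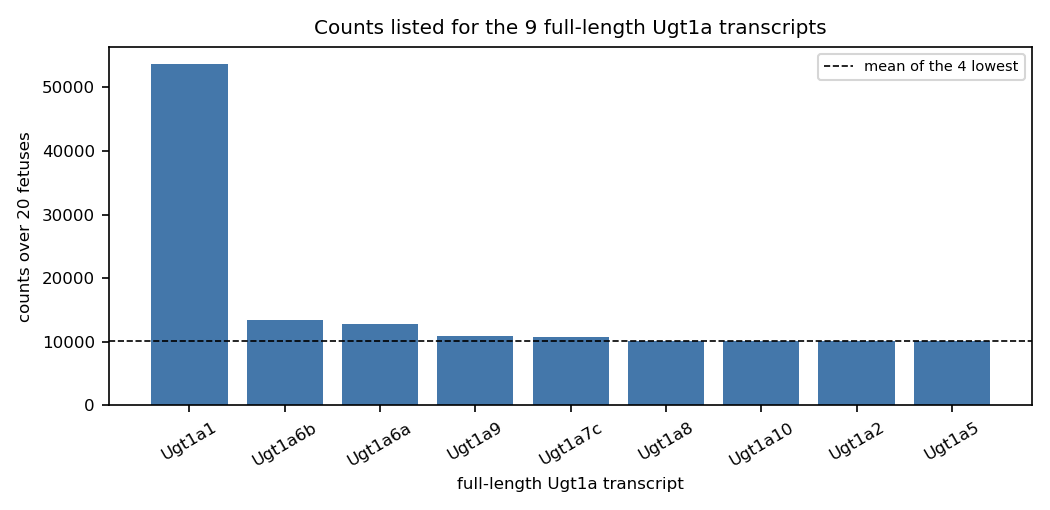
Counts summed over 20 fetuses (vertical axis) for the full-length transcript of each of the 9 Ugt1a genes (horizontal axis); the dashed line is the mean of the 4 lowest. Ugt1a1 stands at 53646 and the 4 lowest lie between 10099 and 10184.

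The summed Ugt1a locus did not differ between the groups beyond its litter spread. It lay at 478, 641, 602, 344 and 534 CPM in control litters A to E and at 513, 483, 555, 482 and 610 CPM in MNR litters A to E. The MNR range falls inside the control range. The fitted log2 fold change of the locus was 0.03, with a 95% interval of -0.29 to 0.34 and an adjusted p of 0.942. For Ugt1a1 the log2 fold change was 0.06 ± 0.20 (SE), from 129 ± 40.5 to 134 ± 21.9 CPM (SD, 5 litters each), with an adjusted p of 0.904. Ugt1a2, of smallest p among the Ugt1 genes, had a log2 fold change of 0.04 ± 0.15 (SE) and likewise an adjusted p of 0.904. The counts of Ugt1a1 above the common amount were 104 ± 34.9 CPM in control and 109 ± 19.6 CPM in MNR (SD, n = 5), a log2 difference of 0.12 (two-sided exact permutation test over litters, p = 0.698). Changes of the locus within the interval's bounds are not excluded by these litters. All 9 Ugt1a genes had small positive log2 fold changes, 0.00 to 0.06, and 5 of the 9 turned negative with upper-quartile scaling and 2 of 9 with library totals only.

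Control litter D was the low litter of the locus, with 71.3 CPM of Ugt1a1, while the other control litters held 110 to 176 CPM. The same litter was also lowest in Sult1a1 and Sult1d1, described below, and highest in Gstp1. Its fetuses had 57960 and 51550 CPM of erythroid markers. With the erythroid level as a covariate the log2 fold change of Ugt1a1 was -0.05 (adjusted p = 0.826), and the part of these markers in the litter's low values was not tested.

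The 7 Ugt2b genes had lower mean levels in MNR, each of them, and none passed the adjusted threshold. These enzymes conjugate steroids, fatty acids and bile acids, and the genes lie on chromosome 5 between positions 87318792 and 87853228. Ugt2a3, with a log2 fold change of 0.10, lies among them, between Ugt2b37 and Ugt2b38. The median log2 fold change of the 7 Ugt2b genes was -0.36, that of all tested genes 0.00. An unadjusted p under 0.05 was found for 5 of 7 in edgeR, against 19.6% of all tested genes. All 7 were negative under each of the 3 other scalings. DESeq2 called 1 of the 7 and limma-voom with litter as a random effect called 3, all lower, where these tools called 7.49% and 6.74% of all genes. The genes are neighbours and partly share sequence, so they are not independent measurements.

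Of these genes 4 share their proximal upstream sequence. Each line below gives the 60 bases before the annotated start, 5′ to 3′ on the gene's strand in mm9, and the capitals mark the 22-base run that is the longest one common to Ugt2b5, Ugt2b36, Ugt2b37 and Ugt2b38. Ugt2b35, the gene of smallest p, is shown as a neighbour without the run. The windows are chr5:87569366-87569425, chr5:87521581-87521640, chr5:87683830-87683889 and chr5:87853229-87853288 on the minus strand, and chr5:87429825-87429884 on the plus strand.
Ugt2b5: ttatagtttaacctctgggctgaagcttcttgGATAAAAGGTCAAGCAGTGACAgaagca
Ugt2b36: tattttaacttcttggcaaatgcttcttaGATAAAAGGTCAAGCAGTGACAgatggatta
Ugt2b37: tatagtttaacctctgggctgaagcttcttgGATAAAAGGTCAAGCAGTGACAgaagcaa
Ugt2b38: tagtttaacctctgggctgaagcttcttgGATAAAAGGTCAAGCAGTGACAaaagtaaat
Ugt2b35: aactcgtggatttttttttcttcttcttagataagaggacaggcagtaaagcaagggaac
The run occurred in the 250 bases upstream of 4 of 22380 protein-coding genes, and these 4 were the genes shown. The 4 genes were picked after their sequences were seen, so the match is given as a description. The 4 genes with the run had log2 fold changes of -0.39, -0.68, -0.50 and -0.27 in the order shown, and Ugt2b35, Ugt2b34 and Ugt2b1, without it, had -0.36, -0.26 and -0.13.

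Ugt2b35 was the member of smallest p in the UGT family. It lay at 42.0, 39.4, 50.8, 47.4 and 50.6 CPM in control litters A to E and at 36.6, 31.0, 41.8, 36.2 and 34.3 CPM in MNR litters A to E. MNR litter C overlapped control litter B, and the other 4 MNR litters lay below all control litters. The log2 fold change was -0.36 ± 0.09 (SE), with an unadjusted p of 0.00217 and an adjusted p of 0.0767 in edgeR, short of the threshold. None of its 50-base windows occurs in a protein-coding transcript of another gene.

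Ugt2b34 was the most abundant Ugt2 gene per length, with 56.0 CPM per kilobase of exon in control. Its litters held 232, 190, 241, 267 and 279 CPM in control and 195, 199, 217, 217 and 183 CPM in MNR. Only control litter B reached into the MNR range. This gave a log2 fold change of -0.26 ± 0.10 (SE), adjusted p = 0.178.

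Ugt2b5 followed at 32.7 CPM per kilobase, from 61.5 ± 11.5 to 47.1 ± 5.51 CPM (SD), a log2 fold change of -0.39 ± 0.13 (SE) with an adjusted p of 0.132. Ugt2b37 went from 4.14 ± 0.864 to 2.92 ± 0.476 CPM, a log2 fold change of -0.50 ± 0.16 (adjusted p = 0.130). Ugt2b36 had the largest difference of the family, from 16.5 ± 5.60 to 10.3 ± 3.33 CPM, and also a wide litter spread (log2 fold change -0.68 ± 0.27, adjusted p = 0.191). Ugt2b36 ranged over 7.90 to 22.3 CPM in control litters and over 6.87 to 15.8 CPM in MNR litters, so most of the MNR range lay inside that of control. Ugt2b38 and Ugt2b1, at log2 fold changes of -0.27 and -0.13, had unadjusted p-values above 0.05. Ugt2b5 shares 41.1% of its 50-base windows with other genes, Ugt2b38 37.4% and Ugt2b37 18.3%, so counts of these 3 may be exchanged among them.

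Control litter B was the lowest control litter for Ugt2b34, Ugt2b35, Ugt2b36, Ugt2b5, Ugt2b37 and Ugt2b38, with Ugt2b5 at 43.4 CPM against 60.9 to 75.4 CPM in the other 4. Without it, 5 of the 7 were called lower, where 4.75% of all genes were called (843 calls): Ugt2b34 at -0.33 (adjusted p = 0.0376), Ugt2b35 at -0.41 (adjusted p = 0.0297), Ugt2b36 at -0.85 (adjusted p = 0.0417), Ugt2b5 at -0.49 (adjusted p = 0.0214) and Ugt2b37 at -0.61 (adjusted p = 0.0341). None of these 5 genes was called when any other single litter was left out. Control litter B was their lowest control litter, so leaving it out widens the difference by construction. Fetus 1 of control litter B carried 327 CPM of pancreatic markers, against 6.04 to 17.2 CPM in the other control fetuses. This fetus also had the lowest erythroid sum, 26580 CPM. Its littermate, with 17.2 CPM of pancreatic markers, had 46.1 CPM of Ugt2b5, also below the 59.3 to 73.3 CPM of the fetuses of the other 4 control litters. Leaving out the 3 fetuses with the highest pancreatic sums gave -0.32 (adjusted p = 0.101) for Ugt2b35 and -0.36 (adjusted p = 0.108) for Ugt2b5, so the values stayed close and no Ugt2b gene was called.

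**Figure D3:**
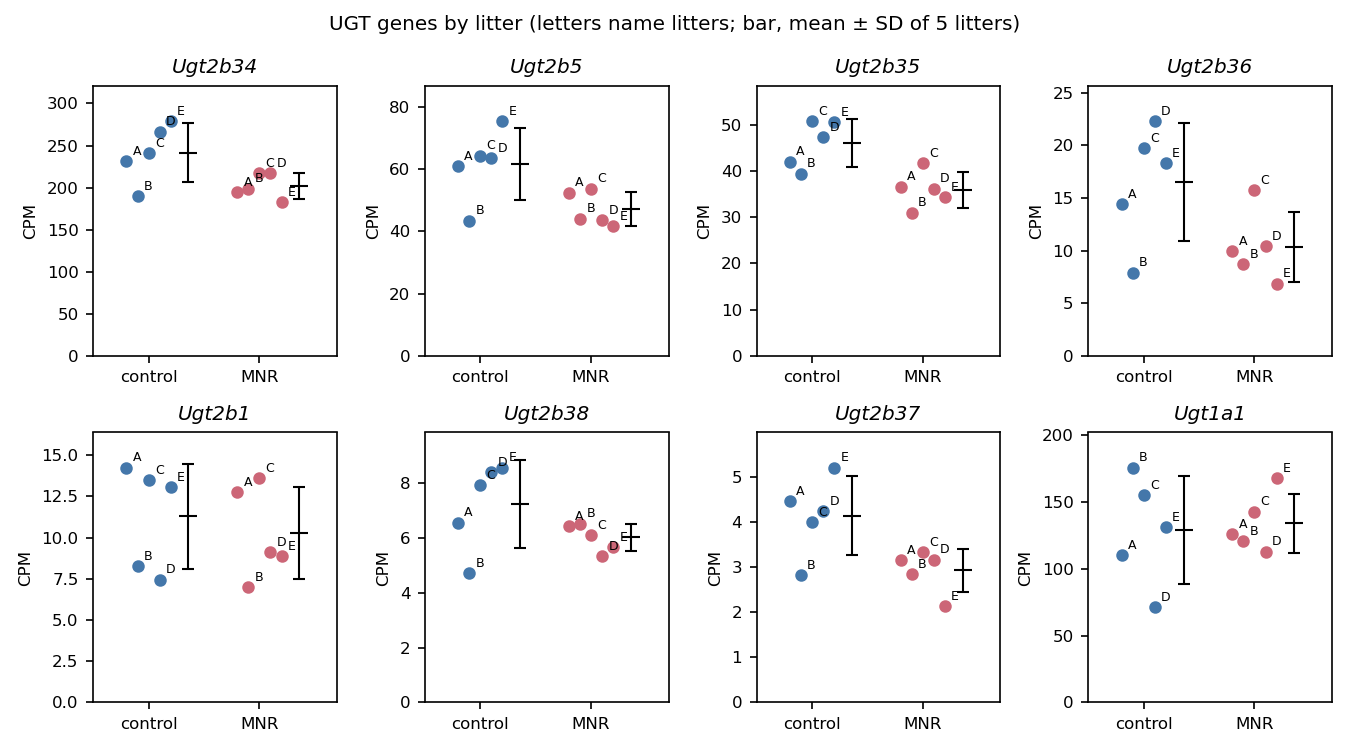
CPM (vertical axes, from 0) of the 7 Ugt2b genes and Ugt1a1 in 5 control and 5 MNR litters; points are litters with their letters, bars the mean ± SD. Control litter B sits at or near the bottom of the control points for the Ugt2b genes, and Ugt1a1 overlaps fully between the groups.

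The other UGT genes showed no difference beyond the litter spread. Ugt2a3, a gut and liver UGT, was listed at 4.13 ± 1.30 and 4.44 ± 0.640 CPM in control and MNR, and Ugt2a1, known from the nasal epithelium, at 1.60 ± 0.339 and 1.54 ± 0.205 CPM. Ugt3a2 and Ugt3a1, which use UDP-sugars other than glucuronate, had log2 fold changes of 0.06 ± 0.24 and 0.21 ± 0.26 (SE), with adjusted p-values of 0.916 and 0.687. The 2 Ugt3 genes share 8.38% to 8.88% of their windows.

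Mgst2 was the called member. It encodes a microsomal enzyme that uses glutathione to act on lipid hydroperoxides and on leukotriene A4. Mgst2 lay at 15.6, 16.3, 13.4, 15.3 and 13.4 CPM in control litters A to E and at 24.1, 29.8, 20.7, 21.5 and 19.2 CPM in MNR litters A to E. Every MNR litter was above every control litter. The level rose 1.56-fold, from 14.8 ± 1.31 to 23.1 ± 4.15 CPM, a log2 fold change of 0.64 ± 0.11 (SE) with a 95% interval of 0.39 to 0.88 and an adjusted p of 0.0374. Among single fetuses, on unscaled totals, the ranges touched: MNR E_1 held 15.4 CPM, while control A_1 held 18.6 CPM and control B_2 18.1 CPM. The highest fetus was MNR B_1 at 33.4 CPM.

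The call stood close to the threshold. It was lost when any single litter other than control B or MNR D was left out, with adjusted p-values of 0.0534 to 0.111 for those 8 litters, while the log2 fold change stayed between 0.53 and 0.70 over all 10 omissions. It was also lost with fetus 1 of each litter only (0.58, adjusted p = 0.312) and with protein-coding transcripts only (0.41, adjusted p = 0.197).

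Most Mgst2 counts were not on its coding transcripts. The gene spans chr3:51464282-51486597 on the plus strand of mm9. Of its 7787 counts, 3760, or 48.3%, were listed for Mgst2-002, an annotated retained-intron transcript. Its first exon begins within the intron, 2429 bases before exon 3, and runs into that exon. Mgst2-002 is 2803 bases long, and the coding Mgst2-001 and Mgst2-008 had 929 and 706 counts over 603 and 479 bases. These counts are not scaled by length, so they do not rank the transcripts by abundance. The transcripts share exons, and how reads of shared exons were assigned is not stated.

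Mgst2-002 rose from 6.81 ± 0.921 to 11.5 ± 2.36 CPM (SD), a log2 fold change of 0.75 ± 0.13 (SE) with an adjusted p of 0.0318 in an edgeR fit over 55494 transcripts, of which 0.575% were called. Mgst2-009, a processed transcript that starts in the same intron, rose by 0.67 ± 0.13 (adjusted p = 0.0460). The coding transcripts Mgst2-001 and Mgst2-008 had log2 fold changes of 0.44 ± 0.19 (adjusted p = 0.260) and 0.35 ± 0.15 (adjusted p = 0.275). Coding transcripts held 23.0% ± 4.64 of the gene's counts in control and 19.7% ± 1.89 in MNR (SD, n = 5), a difference chosen after the values were seen that the litter spread does not separate (two-sided exact permutation test, p = 0.159). None of the 50-base windows of the coding transcripts occurs in a protein-coding transcript of another gene. Windows of the noncoding transcripts of Mgst2, Mgst2-002 and Mgst2-009 among them, were not searched.

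Markers of blood cells, which the fetal liver also holds, are given beside Mgst2. The 5 neutrophil markers summed to 1114 to 1878 CPM in control fetuses and 1274 to 2233 CPM in MNR fetuses; all 5 had positive log2 fold changes, 3 with an unadjusted p under 0.05 in edgeR, and none was called by it. The 5 macrophage markers found summed to 232 to 318 CPM and 238 to 349 CPM. MNR litter B, the highest in Mgst2, also held the highest neutrophil sum, 2233 CPM in fetus 2. Within that litter the order was reversed. Fetus 1 held 33.4 CPM of Mgst2 with a neutrophil sum of 1810 CPM, and fetus 2 held 25.5 CPM of Mgst2. The 4 megakaryocyte markers summed to 152 to 247 CPM in control and 177 to 287 CPM in MNR; all 4 had positive log2 fold changes, 3 with an unadjusted p under 0.05, and none was called by edgeR. Gp9, a platelet glycoprotein gene, had litters that did not overlap (0.29 ± 0.07, adjusted p = 0.0731), as had the neutrophil marker Mpo (0.30 ± 0.09, adjusted p = 0.103). Other blood lists went the other way. All 4 B cell precursor markers had negative log2 fold changes, 2 with an unadjusted p under 0.05. All 9 erythroid markers were negative, 0 with such a p, and neither list held a call. Of all tested genes, 19.6% had an unadjusted p under 0.05 and 4.5% had litters that did not overlap. No marker of these lists was at 0. Their part in the Mgst2 result was not tested. With the erythroid level as a covariate Mgst2 stood at 0.67 (adjusted p = 0.0367), and without the 3 fetuses of highest pancreatic sums at 0.61 (adjusted p = 0.0199).

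Mgst1, the detoxifying microsomal enzyme of hepatocytes, was the second most abundant member per length, at 195 CPM per kilobase in control and 177 in MNR. Its mean was 392 ± 49.7 CPM in the control litters and 356 ± 35.5 CPM in those of MNR, a log2 fold change of -0.14 ± 0.10 (adjusted p = 0.462). Mgst3, a glutathione peroxidase of the same family, had a log2 fold change of 0.01 ± 0.16. The 3 MGST genes thus had log2 fold changes of 0.64, -0.14 and 0.01.

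**Figure D4:**
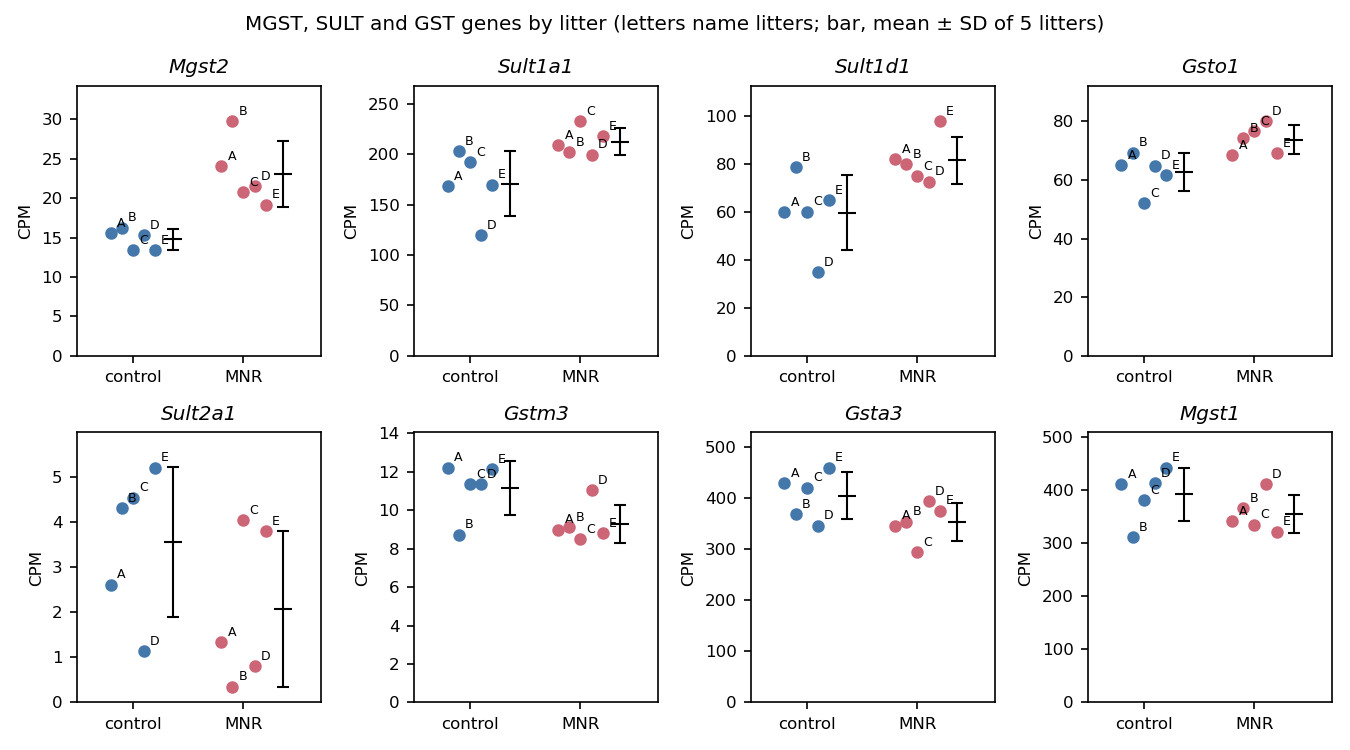
CPM (vertical axes, from 0) of Mgst2 and of 7 SULT, GST and MGST genes in 5 control and 5 MNR litters; points are litters with their letters, bars the mean ± SD. Of the 8 genes, only Mgst2 has 2 separate groups of points; control litter D is the low point of Sult1a1 and Sult1d1.

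The cytosolic GST genes held the highest levels of the set and no call. Of 21 tested GST genes, 2 higher and 1 lower had an unadjusted p under 0.05 in edgeR, against 19.6% of all tested genes. The median log2 fold change of the GST genes was -0.06. DESeq2 and limma-voom gave an adjusted p for 19 of the 21 and called 0. Gsta3, an alpha-class enzyme that is abundant in mouse liver, was the highest member per length, at 290 CPM per kilobase in control. Its litters held 428, 368, 420, 346 and 459 CPM in control and 346, 354, 294, 394 and 375 CPM in MNR. The groups overlapped widely, at a log2 fold change of -0.20 ± 0.10 (SE, adjusted p = 0.281). Gsta1 and Gsta2, inducible alpha-class enzymes of adult liver, were low here at 0.416 ± 0.105 and 1.03 ± 0.188 CPM in control. They share 89.7% and 48.3% of their windows with other genes. Gsta1 shares most with Gm3776, 82.9% of its windows, and that gene is not a member. Summed, Gsta1 and Gsta2 had a log2 fold change of 0.29 ± 0.15 (adjusted p = 0.302), and Gm3776 was not in the sum.

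Gstp1 and Gstp2, the pi-class pair, share 67.5% and 67.9% of their windows and were read together. Summed, their mean went from 199 ± 33.3 CPM to 171 ± 21.4 CPM in MNR, a log2 fold change of -0.21 ± 0.12 (SE, 95% interval -0.48 to 0.05, adjusted p = 0.354). Gstp1 alone followed Mgst1 in level, at 194 CPM per kilobase in control, and had a log2 fold change of -0.22 ± 0.12 (adjusted p = 0.333). It was highest in control litters D and E, with 173 and 168 CPM, and lowest in MNR litter E with 107 CPM.

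Of the 8 mu-class genes, 7 had negative log2 fold changes, from -0.41 to -0.04, and Gstm5 a positive one of 0.05. Among the 7 is Gstm2-ps1, a gene of 258 exon bases on chromosome 5, at -0.06. It shares 41.1% of its windows with other genes, most often Gstm1, so its counts are uncertain. Gstm1, the main mu-class enzyme of liver, had 146 ± 16.0 CPM in the control litters and 142 ± 22.2 CPM in those of MNR (-0.04 ± 0.11, adjusted p = 0.865). Gstm3 was the mu gene of smallest p, from 11.2 ± 1.42 to 9.29 ± 0.998 CPM, a log2 fold change of -0.26 ± 0.10 with an adjusted p of 0.186. Without control litter B, its low control litter at 8.73 CPM, it was called at -0.34 (adjusted p = 0.0439). It was not called when any other single litter was left out. Gstm3 overlaps Gstm6 on the same strand and shares 15.3% of its windows with other genes, so its counts are uncertain.

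The omega class held the 2 GST genes of higher level in MNR and an unadjusted p under 0.05. Gsto1, which reduces dehydroascorbate and methylated arsenic, lay at 64.9, 69.3, 52.2, 64.9 and 61.6 CPM in control litters and at 68.3, 74.2, 76.6, 80.0 and 69.0 CPM in MNR litters. Control litter B alone reached into the MNR range, just above its lowest litters. This gave a log2 fold change of 0.23 ± 0.08 (SE), adjusted p = 0.131. Gsto2 had 0.57 ± 0.24 (adjusted p = 0.224) at only 0.296 ± 0.105 CPM in control and 0.436 ± 0.0720 CPM in MNR, from 151 counts over all fetuses. That level is little above the 0.107 to 0.201 CPM that 3 counts give in a fetus.

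Gstz1, which is the maleylacetoacetate isomerase of tyrosine breakdown, was next in level at 134 CPM per kilobase. Its mean was 222 ± 16.2 CPM in the control litters and 246 ± 15.9 CPM in those of MNR (log2 fold change 0.14 ± 0.07, adjusted p = 0.271). Its spread between litters was the smallest of the 49 members whose mean reached 1 CPM. Gstk1, the mitochondrial kappa-class enzyme, lay at 10.8 ± 3.67 and 9.82 ± 0.821 CPM (log2 fold change -0.14 ± 0.18, adjusted p = 0.713). The litters of the groups overlapped for both enzymes.

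Gstt1 differed between litters far more than between groups. The theta-class enzyme, which acts on small halogenated compounds, lay at 50.7, 119, 54.8, 85.4 and 130 CPM in control litters A to E and at 60.6, 163, 89.6, 98.9 and 53.8 CPM in MNR litters A to E. High and low litters occurred in both groups, and the log2 fold change was 0.09 ± 0.33 (SE, adjusted p = 0.912). Littermates had like levels: the SD on the log2 scale was 0.16 between littermates and 0.60 between litter means within a group. MNR litter B held 161 and 158 CPM in its fetuses, and MNR litter E 54.3 and 52.0 CPM. None of the Gstt1 windows occurs in a protein-coding transcript of another gene. Gstt2 and Gstt3 had log2 fold changes of 0.25 ± 0.12 (adjusted p = 0.279) and 0.30 ± 0.18 (adjusted p = 0.389), and Gstt4 had 16 counts in all and was not tested.

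**Figure D5:**
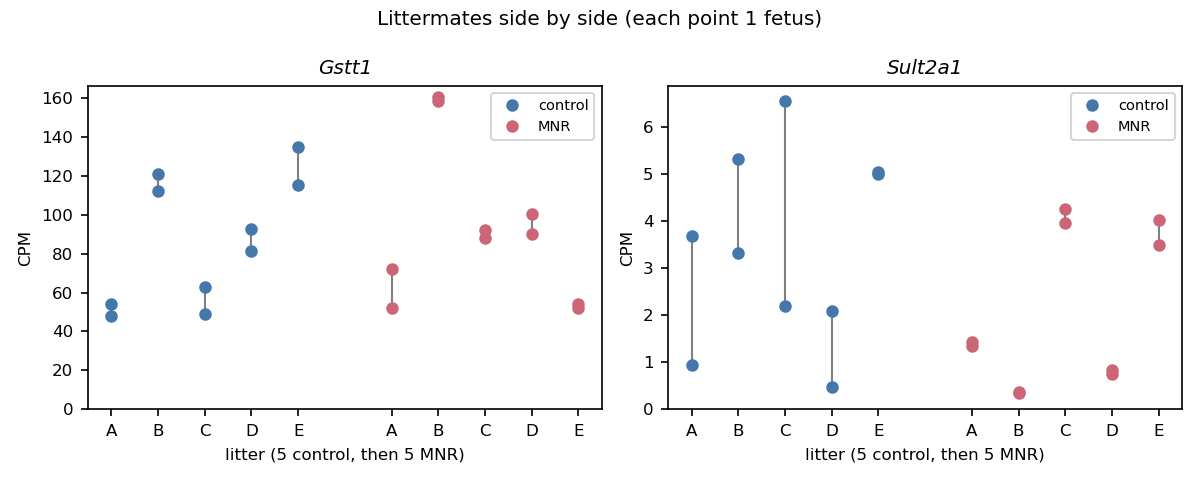
CPM per fetus on unscaled totals (vertical axes, from 0) of Gstt1 and Sult2a1, with the 2 fetuses of a litter joined by a line (horizontal axis, control litters A to E, then MNR litters A to E). For Gstt1 the littermates lie close together and the litters far apart, and MNR litter B is highest; for Sult2a1 the fetuses of control litters A and C lie far apart.

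The sulfotransferases differed by subfamily in the sign of their changes. The 3 tested Sult1 genes had positive log2 fold changes and the 5 tested Sult2a genes negative ones, and none of the 10 was called by edgeR. DESeq2 and limma-voom gave an adjusted p for 7 of them and called 0. An unadjusted p under 0.05 in edgeR was found for 2 of the 10, both Sult1 genes, against 19.6% of all tested genes. The Sult2a genes partly share sequence, so they are not independent measurements. The family's median of -0.34 depended on which genes were tested: it was 0.22 with a filter of at least 1 CPM in at least 5 litters, which leaves out low Sult2a genes.

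Sult1a1, the main phenol sulfotransferase of liver, was the most abundant SULT gene at 113 CPM per kilobase in control and 141 in MNR. It lay at 169, 203, 192, 119 and 170 CPM in control litters A to E and at 209, 202, 233, 200 and 218 CPM in MNR litters A to E. Control litter B reached into the MNR range and control litter D was far below the rest. The log2 fold change was 0.32 ± 0.12 (SE), adjusted p = 0.177, and 0.21 without control litter D. Sult1d1, which sulfonates catecholamines and eicosanoids, lay at 60.0, 78.5, 60.0, 35.0 and 64.9 CPM in control litters and at 81.9, 79.9, 74.9, 72.5 and 97.7 CPM in MNR litters. Here too control litter B overlapped MNR and control litter D was lowest. The log2 fold change was 0.45 ± 0.17 (adjusted p = 0.175) and 0.31 without the litter of lowest level. Sult1b1, a thyroid hormone sulfotransferase, had 0.22 ± 0.14 at 2.41 ± 0.255 CPM in control.

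The Sult2a genes encode the hydroxysteroid and bile acid sulfotransferases, which are female-biased in adult mouse liver. All of them were low in these male fetuses. Sult2a1, the highest, lay at 2.61, 4.30, 4.54, 1.13 and 5.20 CPM in control litters A to E and at 1.34, 0.352, 4.04, 0.803 and 3.80 CPM in MNR litters A to E. The 3 highest litters were control and the 2 lowest MNR, but the groups overlapped, with control D low and MNR C and E high. The log2 fold change was -0.77 ± 0.57 (SE, adjusted p = 0.491). Sult2a5, of smallest p, had -1.08 ± 0.59 (adjusted p = 0.344) at 0.583 ± 0.373 and 0.268 ± 0.172 CPM. The 6 Sult2a genes share 7.14% to 63.4% of their windows, and summed they had -0.73 with a 95% interval of -1.91 to 0.44. The interval covers both a marked decrease and a small increase.

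Upstream of the SULT genes one short motif was common. The letters GTTAAT, a half-site of the liver factor HNF1, were searched on both strands in the 250 bases before each annotated start. They occurred in 18 of 62 members, or 29.0%, and in 5.75% of 22380 protein-coding genes. Of the 17 SULT genes 10 held it, all 6 Sult2a genes among them, and 5 of 9 Ugt1a genes, of which Ugt1a6a and Ugt1a6b share 1 annotated start. These counts include near copies: of the 20-base windows in the upstream regions of Sult2a1 and Sult2a2, 99.6% and 99.1% occurred in that of another Sult2a gene, and 0 to 42.9% for the other 4. No Ugt2b gene held these letters in this window. The annotated start shared by Ugt1a6a and Ugt1a6b is position 89999827. Exon 1 of their full-length transcripts begins further downstream, at 90034953 for Ugt1a6a and 90003437 for Ugt1a6b. The bases just before those exons were not searched. The region of Sult1a1, the most abundant SULT gene, is shown 5′ to 3′ on the gene's strand, with the motif on either strand in capitals (chr7:133819947-133820196, minus strand).
Sult1a1: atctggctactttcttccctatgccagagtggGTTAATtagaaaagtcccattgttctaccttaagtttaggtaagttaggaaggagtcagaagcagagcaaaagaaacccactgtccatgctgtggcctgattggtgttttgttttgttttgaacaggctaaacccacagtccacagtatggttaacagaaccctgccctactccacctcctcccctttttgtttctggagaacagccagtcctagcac
A match is a description of the letters, not of binding. The letters TGACNNNGC of the antioxidant response element, to which NRF2 binds, occurred in 4.84% of members and 10.0% of all genes, and the core GCGTG of the xenobiotic response element in 16.1% and 32.3%. Mgst2 held none of the 3 motifs in its window, which lies before the start of the processed transcript Mgst2-003 at position 51464282. Its coding transcripts Mgst2-001 and Mgst2-008 start further downstream, at 51465101 and 51465149, and the bases just before those starts were not searched.

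Sult3a1 and Sult5a1 were low and uneven. Sult3a1, known as an amine sulfotransferase, lay at 4.64 ± 3.32 and 3.78 ± 1.92 CPM (log2 fold change -0.29 ± 0.42, adjusted p = 0.746), and Sult5a1 at 2.42 ± 1.97 and 3.13 ± 1.90 CPM (log2 fold change 0.37 ± 0.49, adjusted p = 0.716). Litter C was the highest litter of Sult5a1 in both groups. Sult1c1, Sult1c2, Sult1e1, Sult2a3, Sult2b1, Sult4a1 and Sult6b1 had 1 to 49 counts each over the 20 fetuses and were not tested; Sult1e1, the estrogen sulfotransferase, had 7.

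Genes that supply the cofactors or regulate the family were read from 4 lists. Of 51 tested genes, 1 was called by edgeR, against 0.666% of all tested genes. With the erythroid level as a covariate 0 of the 51 were called, and 0 also when any single litter other than control B or MNR D was left out. An unadjusted p under 0.05 was found for 16 of the 51, against 19.6% of all tested genes.

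Among the 9 genes of UDP-glucuronate supply and glucuronide handling, Slc35b1, a nucleotide transporter of the endoplasmic reticulum, had -0.59 ± 0.15 (adjusted p = 0.0721) with litters that did not overlap. Ugdh, which makes UDP-glucuronate, had 0.19 ± 0.20. Of 14 tested glutathione genes, Cth, which makes cysteine by transsulfuration, went from 282 ± 54.8 to 485 ± 107 CPM, a log2 fold change of 0.78 ± 0.16 with an adjusted p of 0.0526, just short of the threshold. Gclm, the modifier subunit of glutamate-cysteine ligase, had -0.20 ± 0.06 (adjusted p = 0.118) without overlap, and the catalytic subunit Gclc -0.27 ± 0.09 (adjusted p = 0.137).

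Of 11 tested genes of PAPS supply and sulfate handling, 3 had an unadjusted p under 0.05, a mark passed by 19.6% of all tested genes. All 3 were lower in MNR, and none was called. Slc26a1, a sulfate carrier, had -0.33 ± 0.11 (adjusted p = 0.129) and Papss1, a PAPS synthase, -0.30 ± 0.11 (adjusted p = 0.163), while Papss2, the other PAPS synthase, was at 83.5 CPM in both groups. Of 17 regulators, 13 had positive values, 5 with an unadjusted p under 0.05 in edgeR, and 2 negative ones passed that mark. Bach1, a repressor of antioxidant response genes, had 0.41 ± 0.09 (adjusted p = 0.0587) and Rxra, the partner of PXR and CAR, 0.26 ± 0.07 (adjusted p = 0.0785). Nfe2l2, which encodes NRF2, had 0.05 ± 0.07. DESeq2 called 10 of the 51 genes, 5 in each direction, and limma-voom 11, where they called 7.49% and 6.74% of all genes.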

How the data were processed

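Polyadenylated RNA of 20 fetal livers was measured. Per the labels' protocols, RNA was isolated with TRIzol and a column kit, and libraries came from a directional kit. The deposited values are whole-number counts per transcript and fetus; the submitters' processing notes name build mm9 and the tools edgeR, DESeq2, Bowtie2 and FastQC. How reads were counted, with or without strand, and what was done with reads of several matches is not stated in the labels, so counts of paralogs and overlapping genes are uncertain. A deposited gene table equalled the summed counts for 8.52% to 9.66% of genes only and was not used.

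Counts were summed to genes with the mm9 annotation (GENCODE M1), leaving out 0.0788% to 0.154% of counts without a gene, and then to litters. No 2 fetuses of a group agreed within sampling noise (90 pairs, chi-square over degrees of freedom 9.78 to 79.1). edgeR 4.0.16 in R 4.3.3 (filterByExpr with a minimum count of 10, TMM, quasi-likelihood test, two-sided) compared 5 MNR with 5 control litters, with p-values adjusted by Benjamini-Hochberg over the whole table and a threshold of 0.05. The labels name no batch. Levels per length are CPM per kilobase of merged exons. CPM of single fetuses uses unscaled totals. DESeq2 1.42.0 and limma 3.58.1, other scalings and filters, 1 fetus per litter, a replicate block, an erythroid covariate and the omission of each litter were alternatives; a fit without 3 fetuses with over 5 times the median pancreatic sum, coding transcripts only and paralog loci summed were added after seeing the data. The edgeR script was tested on simulated data.

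The members and lists were chosen with earlier results of these data known. Named are members past the threshold, those with an unadjusted p under 0.05 or with litters that do not overlap at a mean of at least 1 CPM, and in each class the member of highest level and the one of smallest p; cofactor and regulator genes are named when called, with up to 2 of smallest p per list. Of these, 1 gene is not reported here. Ugdh, Gclc, Papss2, Nfe2l2, Ugt2a1, Ugt2a3 and the remaining members named for completeness fall outside this rule. Sts, Ahsp and Pnlip were not matched to a gene.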

Additional observations from a re-analysis of the deposited data

Results flagged for a closer look

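The gap between the outermost litter and its neighbour, relative to the range of the group's 5 litters, was compared with Dixon's critical value of 0.71 for 54 groups, 2 for each of 27 named members. Chance alone marks about 1 in 20 groups, and 5 of the 54 were marked. Sult5a1 stood at 5.81 CPM in control litter C, where the next litter held 2.26 CPM, and at 6.51 CPM in MNR litter C, next to 2.46 CPM. Sult3a1 was at 10.5 CPM in control litter E, with the next at 3.76 CPM. Gstm3 was low in control litter B at 8.73 CPM, below 11.3 CPM in the next litter, and high in MNR litter D at 11.0 CPM, above 9.11 CPM.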

How the results depend on the processing

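The log2 fold changes of the 11 members with an unadjusted p under 0.05 kept their sign under every alternative run on them. Mgst2 ranged from 0.41 to 0.71, and Ugt2b35 from -0.42 to -0.31. The count of called members, 1 in the reported comparison, was 2 with DESeq2, 2 at an adjusted p under 0.1, 10 with fetuses as separate libraries, 4 with limma-voom, 0 with fetus 1 of each litter, 0 on coding transcripts only, and 0 to 7 when litters were left out in turn. Over all genes, the reported 117 calls (73 higher, 44 lower) became 1163 with DESeq2, 178 with upper-quartile scaling (68 higher, 110 lower), 875 at an adjusted p under 0.1, 2301 with fetuses as separate libraries, 1088 with limma-voom, 0 with fetus 1 and 499 with fetus 2, 215 without the 3 fetuses of high pancreatic markers, and 0 to 843 when litters were left out. The cofactor and regulator count of 1 became 10 with DESeq2, 2 with library totals only, 2 without a filter, 2 with the stricter filter, 5 at an adjusted p under 0.1, 13 with fetuses as separate libraries, 11 with limma-voom, 0 with fetus 1 and 4 with fetus 2, 0 with the erythroid covariate, 4 without the 3 fetuses, 2 on coding transcripts, and 0 to 6 when litters were left out. The causes were not tested; fetuses as separate libraries counts littermates as independent.

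With the litter letter as a replicate block, 2 members were called (Ugt2b35 as well, adjusted p = 0.0457), 232 genes in all and 3 cofactor or regulator genes. The letters name different dams. Deviations of same-lettered litters correlated at -0.00697 to 0.203, above 0.1 for 3 of 5 letters, and 2 of 5 control litters correlated best with their own letter, so no pairing was used.

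Low counts limit Gsto2, Gsta1 and the Sult2a genes, whose litters rest on few reads.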
